A study of Mus musculus with 19 samples.

Results

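The 10 genes described here encode parts of the TWEAK, lymphotoxin and tumour necrosis factor (TNF) signalling routes, and were measured by RNA sequencing of mouse liver cells. They were found by gene symbol among the 35274 genes of the deposited tables: the ligands Tnfsf12 and Ltb, the receptors Tnfrsf12a, Tnfrsf1a, Tnfrsf1b and Ltbr, the adaptor Traf2, the inhibitor Tnfaip3 and the NF-κB subunits Relb and Nfkb2. Each of the 10 had 1 row in the tables. CTL samples were labelled as native hepatocytes of healthy liver. From chronically injured liver came the RED samples, labelled as native tdTomato hepatocytes, and the GREEN samples, labelled as "DR-derived" hepatocytes; the labels do not spell out DR. Each group had 5 samples, and every animal, controls included, carried OPN-CreERT2 and the Rosa26R-mT/mG reporter. In this reporter, cells show tdTomato until Cre acts and membrane GFP afterwards, and OPN, osteopontin, is a gene of biliary cells in the liver. The sources used here give no kind of injury, age or sex, and no label says which samples share an animal, so p-values measure the spread between these samples. GREEN 3 and GREEN 4 carry the same library code, each in a different experiment. In RED and CTL, a code found in both experiments marks the same sample. Whether GREEN 3 and GREEN 4 are separate samples therefore cannot be told, and they are counted as 2 by their titles.

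TWEAK, encoded by Tnfsf12, is a ligand of the TNF family that binds Fn14, encoded by Tnfrsf12a, a receptor that is scarce in healthy liver and known for its part in the response of liver progenitor and biliary cells to injury. Lymphotoxin beta, encoded by Ltb, forms membrane complexes with lymphotoxin alpha that bind the receptor encoded by Ltbr, and TNF itself binds the receptors encoded by Tnfrsf1a and Tnfrsf1b. These receptors act through TRAF adaptors on NF-κB, either by the canonical route, which A20 (Tnfaip3) restrains, or by the non-canonical route, in which p100 (Nfkb2) is processed to p52 and pairs with RelB.

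The promoters of 3 genes are shown because they hold a match to the consensus sequence that NF-κB dimers bind. Of the 10 genes, 8 had an entry in the RefSeq promoter table (build GRCm38.p6), and Relb and Tnfsf12 had none. The NF-κB consensus was searched on both strands in the 300 bases from 250 before to 50 after each start. The 8 genes had 11 promoters, of which 5 held a match: 1 of 2 of Tnfaip3, the only one of Ltb, and all 3 of Nfkb2, where the second and the third overlap and share a match. Of all 32851 promoters of that length, 8.46% held one. Capitals mark the matches, on the strand of the gene. A match is a description of these letters, not a measured site, and whether it bears on the levels was not tested.
Tnfaip3, chr10:19015361-19015660, minus strand, matches starting 125 and 12 bases before the start: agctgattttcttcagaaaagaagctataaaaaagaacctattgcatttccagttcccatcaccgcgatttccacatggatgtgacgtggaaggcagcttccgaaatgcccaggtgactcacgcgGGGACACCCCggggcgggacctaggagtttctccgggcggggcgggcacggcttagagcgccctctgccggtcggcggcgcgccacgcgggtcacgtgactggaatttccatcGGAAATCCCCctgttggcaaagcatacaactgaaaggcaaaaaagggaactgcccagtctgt
Ltb, chr17:35194257-35194556, plus strand, match starting 87 bases before the start: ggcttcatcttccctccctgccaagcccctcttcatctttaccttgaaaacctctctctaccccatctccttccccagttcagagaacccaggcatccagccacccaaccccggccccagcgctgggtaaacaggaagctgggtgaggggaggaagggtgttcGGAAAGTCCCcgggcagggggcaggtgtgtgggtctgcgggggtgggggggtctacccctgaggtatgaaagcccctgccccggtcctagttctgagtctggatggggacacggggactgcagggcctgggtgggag
Nfkb2, chr19:46304487-46304786, plus strand, the first of 3 RefSeq promoters, matches starting 39 and 38 (overlapping) and 11 bases before the start: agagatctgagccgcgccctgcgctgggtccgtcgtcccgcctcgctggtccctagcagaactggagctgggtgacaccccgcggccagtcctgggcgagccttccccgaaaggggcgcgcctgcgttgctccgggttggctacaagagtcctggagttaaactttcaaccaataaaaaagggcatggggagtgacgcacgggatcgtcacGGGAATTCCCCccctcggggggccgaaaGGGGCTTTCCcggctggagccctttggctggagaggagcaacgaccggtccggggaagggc

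Levels are given as CPM, the count of a gene relative to its library's total count, after scaling by the trimmed mean of M-values (TMM), and group differences as fitted log2 fold changes ± standard error from edgeR's quasi-likelihood test. Calls are at a Benjamini-Hochberg adjusted p under 0.05 over the 16387 genes tested. Total counts per library were 22442431 to 34216692 in experiment 1, prepared with the TruSeq Stranded mRNA kit, and 38061745 to 44177424 in experiment 2, prepared with the KAPA HyperPrep kit with RiboErase. Each group held 2 libraries of experiment 1 and 3 of experiment 2, and experiment was a term of the fit. The scaling matters for small differences: with library totals in place of TMM, the median over all genes moved from 0.11 to 0.83 (log2) in GREEN versus CTL, from 0.05 to 0.33 in RED versus CTL and from -0.02 to 0.42 in GREEN versus RED. The share of all calls that were higher moved with it, in that order from 61.3% to 95.6%, from 87.7% to 96.7% and from 75.0% to 99.1%.

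The hepatocyte label was checked on 12 hepatocyte markers. Their summed level was 126534 to 186922 CPM in CTL, 96169 to 137998 in RED and 37871 to 90861 in GREEN, so the GREEN libraries lay below the others while holding each of the 12 markers. The 14 biliary markers summed to 47.6 to 315 CPM in CTL, 102 to 440 in RED and 591 to 8894 in GREEN. Within GREEN, samples 3, 4 and 5 had 3342, 8894 and 4605 CPM and samples 1 and 2 had 591 and 844. The endothelial, macrophage and stellate or matrix lists were also higher in injured liver: 12, 12 and 11 of 12 genes each were called higher in RED than in CTL. In bulk samples, fewer cells of a type and less RNA per cell cannot be told apart.

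Of the 10 genes, 4 were called higher and 0 lower in RED than in CTL, where 14.2% of all genes were called higher and 1.99% lower. In GREEN versus RED, 3 were called higher and 0 lower, against 9.68% and 3.22% of all genes. In GREEN versus CTL, 6 were called higher and 1 lower, against 29.5% and 18.6% of all genes. All 10 passed the filter on low counts, but Ltb passed only through the GREEN libraries. Among the other 9 genes, 2 were called higher in GREEN versus RED and 5 in GREEN versus CTL. With library totals in place of TMM, 9 of the 10 were called higher in GREEN versus CTL and 0 lower. In RED versus CTL 6 were called higher and in GREEN versus RED 4, again with 0 lower. Each of these counts includes Ltb. Over all genes, library totals called 10077, 2812 and 4289 higher in that order, against 4839, 2326 and 1586 with TMM. The counts of the 10 genes therefore rose along with those of all genes. With TMM, 48.1% of all genes were called in either direction in GREEN versus CTL, 16.2% in RED versus CTL and 12.9% in GREEN versus RED. The median log2 fold change of the 10 in that order was 1.21, 0.64 and 0.27, beside 0.11, 0.05 and -0.02 over all genes tested. These medians include Ltb. For the other 9 genes they were 0.50, 0.37 and 0.20, the values of Traf2, Tnfrsf1b and Tnfsf12. Counting genes whose groups did not overlap gave 6 higher and 0 lower of the 10 in GREEN versus CTL, against 21.0% and 9.59% of all genes. It gave 3 and 0 in RED versus CTL, against 10.6% and 1.42%, and 2 and 0 in GREEN versus RED, against 6.66% and 2.25%. Ltb is 1 of the genes that did not overlap in both comparisons with GREEN. The 3 comparisons share samples, so they are not independent of each other.

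**Figure D1:**
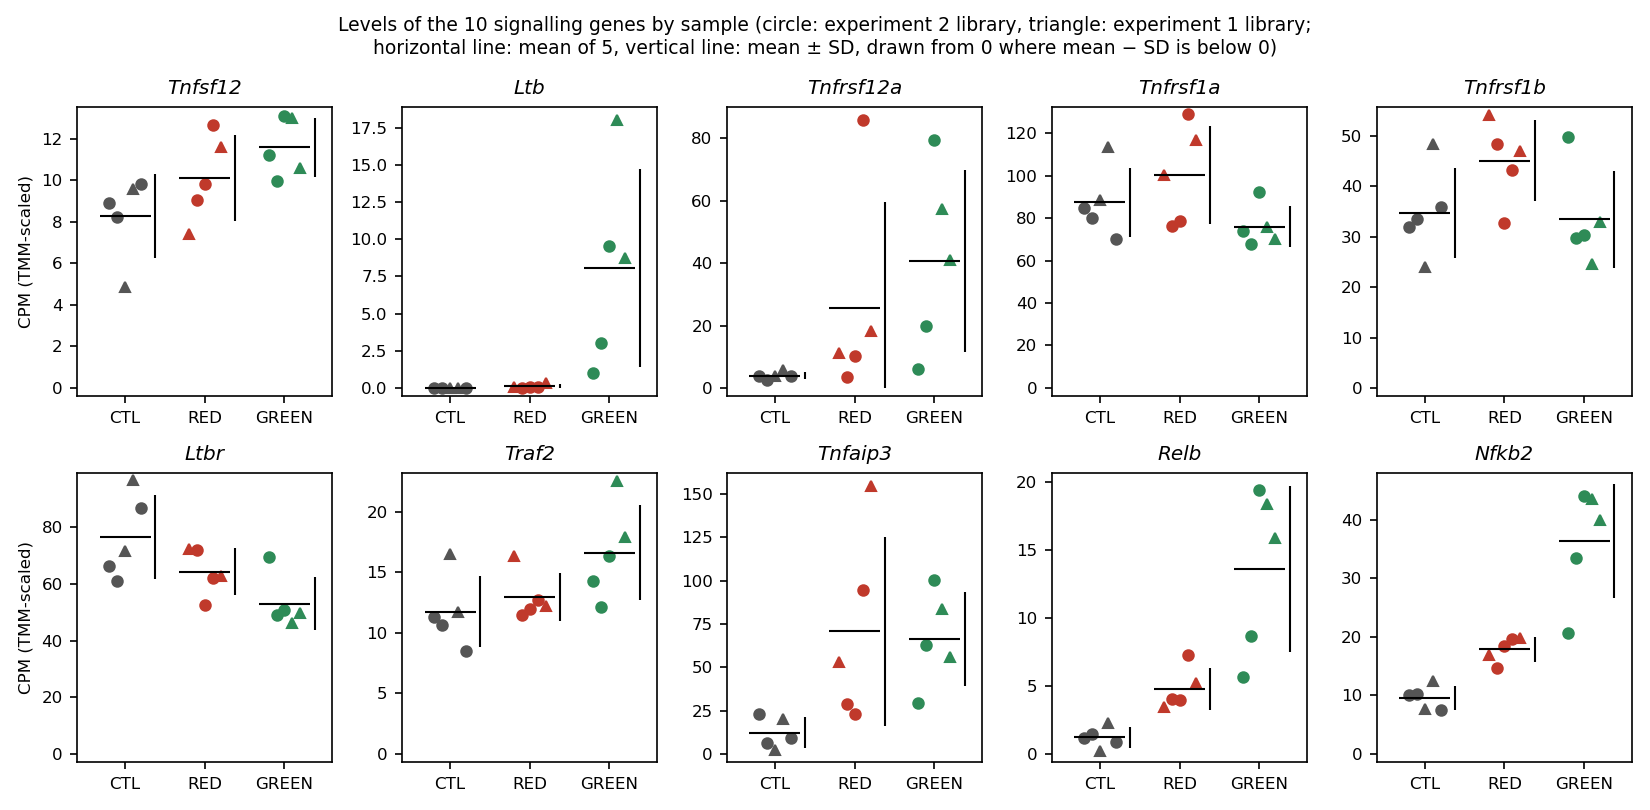
TMM-scaled CPM of each of the 10 genes (vertical axis, from 0, its own scale in each panel) in the 5 CTL, 5 RED and 5 GREEN samples; circles are experiment 2 libraries and triangles experiment 1 libraries, horizontal lines are means and vertical lines mean ± SD, cut at 0. Ltb is near 0 in CTL and RED and reaches 18.0 in GREEN, Nfkb2 does not overlap between any pair of groups, and for Tnfrsf12a the RED sample at 85.8 stands apart.

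Ltb, lymphotoxin beta, was close to absent outside GREEN. Its counts in CTL samples 1 to 5 were 0, 1, 0, 0 and 0, and in RED samples 1 to 5 they were 1, 1, 4, 4 and 9. In GREEN samples 1 to 5 they were 49, 149, 519, 913 and 380, or 1.01, 3.04, 9.58, 18.0 and 8.76 CPM. Every GREEN sample lay above every RED and CTL sample, and the RED and CTL ranges overlapped. The ratio of summed counts, scaled by library size, was 73.8 for GREEN over RED, with a 95% interval of 47.1 to 123 that covers counting error only. Against CTL, which held 1 count in all, the ratio was 1257 with an interval of 225 to 49666. Fitted values were log2 fold changes of 5.96 ± 0.72 over RED and 9.45 ± 0.96 over CTL. Since Ltb entered the fit through GREEN, these are given as a description, with no test. For RED versus CTL the value was 3.49 ± 1.17, on 19 counts against 1, and 3.69 with library totals. That too is a description, with no test, because Ltb would not pass the filter with CTL and RED alone.

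The difference of Ltb between GREEN and RED was of like size in both experiments. The log2 fold change over RED was 6.39 in experiment 1 and 5.91 in experiment 2. Leaving out each library in turn gave 5.39 to 6.42, and leaving out GREEN 3, 4 and 5 together gave 4.59. Ltb is known from lymphocytes, so the lymphocyte list was set beside it. Only 5 of its 13 markers passed the filter, and their sum was 2.44 to 6.68 CPM in CTL, 8.90 to 37.2 in RED and 8.96 to 20.03 in GREEN. The 5 did not move together: 1 was called higher and 1 lower in RED versus CTL, and likewise in GREEN versus CTL. Their median log2 fold changes were 0.09 and 0.56. The sums of RED and GREEN overlapped. The part of lymphocytes in the Ltb result was not tested. Of the list, Cd79a, Nkg7 and Ncr1 had 0 counts in every CTL library. The T cell receptor gene Trac had at most 1 count in a CTL library, 5 in a RED library and 8 in a GREEN library. The partner ligand Lta had 3 counts over the CTL libraries, 2 over RED and 16 over GREEN, too few to pass the filter.

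The order of the GREEN samples was the same by Ltb and by the biliary markers as a mean of log2 CPM, though not by the biliary sum. That mean, over 14 markers with the experiment effect removed, was 3.66, 4.47, 6.46, 6.62 and 5.79 in GREEN 1 to 5. The 4 genes whose log2 CPM was most like that of Ltb over the 15 libraries were Spint1, Scara3, Cttnbp2 and Cldn7, with Pearson's r of 0.995, 0.992, 0.989 and 0.989. Each of these 4, like Ltb, had a library at 0 CPM. These values therefore include a shared floor and the group differences. Cldn7 is itself on the biliary list, and Spint1 encodes an epithelial protease inhibitor. Against the biliary mean, r was 0.99 for Ltb, 0.94 for Nfkb2, 0.86 for Relb and 0.74 for Tnfrsf12a over 15 libraries that share the group differences. After group means were removed these became 0.85, 0.69, 0.57 and 0.58. Other marker lists moved with these genes too. For Relb, r was higher with the 5 neutrophil markers tested, at 0.92 and, after group means were removed, 0.72. For Tnfrsf12a it was 0.78 with the stellate and matrix list, and after group means were removed 0.62 with the macrophage list. For Ltb after group means were removed it was 0.80 with the endothelial, 0.78 with the macrophage, 0.79 with the stellate and matrix and 0.76 with the neutrophil list, and -0.81 with the hepatocyte list. The part of these marker lists in the results was not tested.

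**Figure D2:**
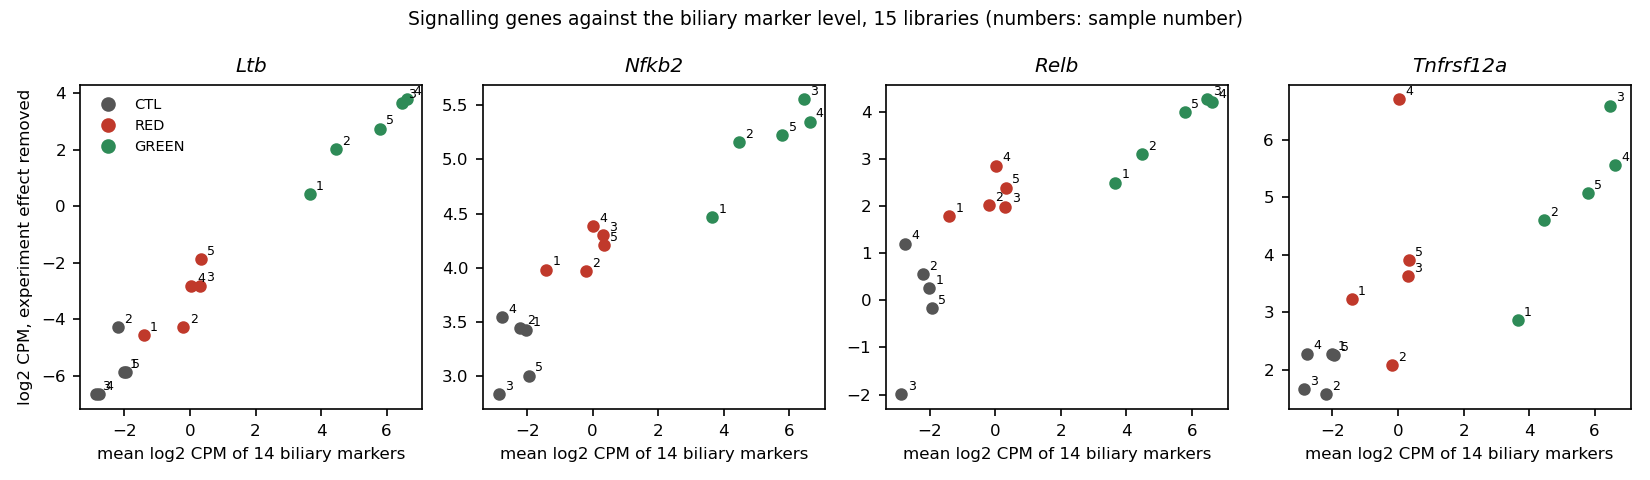
Log2 CPM of Ltb, Nfkb2, Relb and Tnfrsf12a (vertical axes, experiment effect removed) against the mean log2 CPM of 14 biliary markers (horizontal axes) in 15 libraries, coloured by group and numbered by sample. Ltb lies along a single band through all 3 groups, with CTL libraries of 0 counts at the bottom where a prior count of 0.5 sets the value, whereas RED 4 lies far above the other RED samples for Tnfrsf12a.

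Tnfsf12, the gene of TWEAK, was not called in any comparison with TMM scaling. CTL samples 1 to 5 had 8.91, 8.23, 4.84, 9.58 and 9.83 CPM, RED samples 7.43, 9.06, 9.80, 12.7 and 11.6, and GREEN samples 11.2, 9.96, 13.1, 13.0 and 10.6. The lowest GREEN sample lay just above the highest CTL sample, and RED overlapped both. The log2 fold change was 0.29 ± 0.20 for RED versus CTL (edgeR adjusted p = 0.39), 0.20 ± 0.19 for GREEN versus RED (edgeR adjusted p = 0.52) and 0.49 ± 0.20 for GREEN versus CTL (edgeR adjusted p = 0.051). The last value sat on the threshold and passed it under 8 of 29 alternatives, among them library totals, where it was 1.25 (edgeR adjusted p = 0.00068). Tnfsf12 shares its whole span on the same strand with the readthrough gene Tnfsfm13, so the split of reads between them is uncertain. Tnfsfm13 stood at 3.02 ± 1.36, 4.46 ± 1.34 and 4.98 ± 2.00 CPM in CTL, RED and GREEN (SD, n = 5).

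Tnfrsf12a, which encodes the TWEAK receptor Fn14, was higher in injured liver than in CTL. CTL samples 1 to 5 had 3.95, 2.43, 3.82, 5.87 and 3.90 CPM, RED samples 11.4, 3.48, 10.2, 85.8 and 18.2, and GREEN samples 5.96, 19.98, 79.4, 57.4 and 40.9. Every GREEN sample was above every CTL sample, by a narrow margin for GREEN 1, while RED 2 lay inside the CTL range. The log2 fold change was 2.70 ± 0.82 for RED versus CTL (edgeR adjusted p = 0.037), which is 6.48-fold, and 3.36 ± 0.83 for GREEN versus CTL (edgeR adjusted p = 0.0047), which is 10.3-fold. For GREEN versus RED it was 0.66 ± 0.77 and did not pass (edgeR adjusted p = 0.59).

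The RED call of Tnfrsf12a rested on few libraries. Without RED 4 the log2 fold change fell to 1.25 (edgeR adjusted p = 0.19). The call held in 8 of the 15 fits that left out 1 library. It was also lost without RED 5 and without any single CTL sample, where the adjusted p lay between 0.058 and 0.088 and the size changed little. Within experiments the RED versus CTL value was 2.68 and 3.28, with neither past the threshold (edgeR adjusted p = 0.13 and 0.18), and limma-voom gave 1.96 (adjusted p = 0.32). The GREEN versus CTL call held in all 15 of those fits, between 2.89 and 3.64, but not without GREEN 3, 4 and 5 together, at 1.49 (edgeR adjusted p = 0.40). The genes most like Tnfrsf12a were Cbfb, Prkx, Rab35 and Elf3, with Pearson's r of 0.97, 0.96, 0.96 and 0.96 over 15 libraries.

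Tnfrsf1a, the main TNF receptor of most cells, and Tnfrsf1b, the second TNF receptor, were not called in any comparison with TMM scaling. Tnfrsf1a stood at 84.6, 80.1, 88.4, 113.6 and 70.0 CPM in CTL samples 1 to 5. It had 100.3, 76.4, 78.4, 129 and 117 in RED and 73.9, 67.7, 92.5, 75.8 and 70.1 in GREEN. The 3 groups overlapped. Its log2 fold changes were 0.20 ± 0.16 in RED versus CTL, -0.19 ± 0.16 in GREEN versus CTL and -0.39 ± 0.16 in GREEN versus RED (edgeR adjusted p = 0.49, 0.37 and 0.12), and with library totals the 2 negative values turned to 0.55, which passed, and 0.05, which did not (edgeR adjusted p = 0.015 and 0.88).

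Tnfrsf1b had 31.9, 33.5, 23.9, 48.4 and 35.9 CPM in CTL, 54.1, 48.4, 32.6, 43.1 and 46.9 in RED, and 49.7, 29.6, 30.3, 24.6 and 32.8 in GREEN. RED was highest by its mean, 45.0 ± 8.00 against 34.7 ± 8.88 in CTL and 33.4 ± 9.56 in GREEN (SD, n = 5), with overlap throughout. Its log2 fold changes in the same order were 0.37 ± 0.21, -0.05 ± 0.21 and -0.43 ± 0.21 (edgeR adjusted p = 0.30, 0.86 and 0.19), and with library totals the values against CTL were 0.67 in RED and 0.67 in GREEN, both past the threshold (edgeR adjusted p = 0.012 and 0.0035). Without GREEN 1, the GREEN versus RED value was -0.63 and passed (edgeR adjusted p = 0.035).

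Ltbr, the lymphotoxin beta receptor, was the only one of the 10 called lower, in GREEN versus CTL. CTL samples 1 to 5 had 66.5, 61.1, 71.6, 96.5 and 86.9 CPM, RED samples 72.4, 71.8, 52.6, 62.2 and 62.8, and GREEN samples 69.6, 49.1, 50.9, 46.1 and 49.8. Of the GREEN samples, 4 lay below all CTL samples and GREEN 1 lay among them. In the fit it differed by a log2 fold change of -0.52 ± 0.16 for GREEN versus CTL (edgeR adjusted p = 0.013), but with library totals it was 0.20 and did not pass (edgeR adjusted p = 0.14). It was -0.80 in experiment 1 (edgeR adjusted p = 0.0070) and -0.34 in experiment 2 (edgeR adjusted p = 0.25). For RED versus CTL and GREEN versus RED the values were -0.25 ± 0.15 and -0.28 ± 0.15 (edgeR adjusted p = 0.35 and 0.24), and library totals turned them to 0.05 and 0.15.

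Traf2, an adaptor used by TNF receptors and by Fn14, was slightly higher in GREEN than in CTL. Its values were 11.3, 10.7, 16.5, 11.7 and 8.53 CPM in CTL, 16.4, 11.5, 12.0, 12.8 and 12.2 in RED, and 14.3, 12.2, 16.3, 22.5 and 17.9 in GREEN. The groups overlapped. The span of the gene, introns included, also overlaps the pseudogene Gm13433 on the other strand by 240 bases. Overlap of exons was not checked and use of strand in the counting is not stated, so whether reads are shared cannot be told. Its log2 fold change was 0.50 ± 0.14 for GREEN versus CTL (edgeR adjusted p = 0.011), 0.16 ± 0.14 for RED versus CTL (edgeR adjusted p = 0.55) and 0.34 ± 0.14 for GREEN versus RED (edgeR adjusted p = 0.12). Within experiments the GREEN versus CTL value was 0.76 (edgeR adjusted p = 0.021) and 0.49 (edgeR adjusted p = 0.072). Without the experiment term it was 0.50 and did not pass (edgeR adjusted p = 0.0503), and without GREEN 3, 4 and 5 it was 0.26 (edgeR adjusted p = 0.40). With library totals it was 1.23 (edgeR adjusted p = 0.00030), and the GREEN versus RED value was 0.80 and passed (edgeR adjusted p = 0.017).

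Tnfaip3, which encodes A20, an enzyme that limits NF-κB signalling and is itself an NF-κB target, was higher in both injured groups than in CTL. CTL samples 1 to 5 had 23.0, 6.58, 2.48, 20.2 and 9.47 CPM, RED samples 52.96, 29.0, 23.2, 94.6 and 154, and GREEN samples 29.3, 62.9, 100.4, 83.9 and 56.2. No RED or GREEN sample overlapped CTL, though RED 3 and CTL 1 were close, at 23.2 and 23.0. In log2 terms the fold change was 2.44 ± 0.63 for RED versus CTL (edgeR adjusted p = 0.014) and 2.41 ± 0.62 for GREEN versus CTL (edgeR adjusted p = 0.0059), 5.44-fold and 5.32-fold. For GREEN versus RED it was -0.03 ± 0.59 (edgeR adjusted p = 0.98), with a sign that changed under several settings. Without RED 4 the RED versus CTL value was 2.10 and did not pass (edgeR adjusted p = 0.067). Within experiments 1 and 2 it was 2.91 and 1.91 (edgeR adjusted p = 0.075 and 0.16), and the GREEN versus CTL value was 3.02 and 2.30 (edgeR adjusted p = 0.037 and 0.051).

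Relb, a subunit of the non-canonical NF-κB dimer, rose from CTL to RED and from RED to GREEN. CTL samples 1 to 5 had 1.20, 1.46, 0.24, 2.28 and 0.89 CPM, RED samples 3.44, 4.08, 3.98, 7.29 and 5.21, and GREEN samples 5.67, 8.63, 19.4, 18.4 and 15.9. RED and GREEN lay above CTL without overlap, and RED 4 lay above GREEN 1. Fitted log2 fold changes were 2.00 ± 0.48 for RED versus CTL (edgeR adjusted p = 0.0088), 3.48 ± 0.50 for GREEN versus CTL (edgeR adjusted p = 0.00012) and 1.48 ± 0.46 for GREEN versus RED (edgeR adjusted p = 0.048). Within experiments 1 and 2 the RED versus CTL value was 2.10 and 2.11 (edgeR adjusted p = 0.13 and 0.037) and the GREEN versus CTL value 4.34 and 3.24 (edgeR adjusted p = 0.0048 and 0.0047). The RED versus CTL call was lost with the experiment 1 library of the 4 samples that have both, at 1.76 (edgeR adjusted p = 0.13), and with all 19 libraries in limma-voom, at 2.33 (adjusted p = 0.11). The GREEN versus RED call was at the threshold and held in 5 of the 15 fits that left out 1 library, where the value ranged from 1.22 to 1.69. It was 2.24 in experiment 1 (edgeR adjusted p = 0.044) and 1.14 in experiment 2 (edgeR adjusted p = 0.51), and 0.55 without GREEN 3, 4 and 5 (edgeR adjusted p = 1). In experiment 2 with RED and GREEN only and a block by library code, the GREEN versus RED value was 1.01 (edgeR adjusted p = 0.041). Whether the codes pair the samples cannot be told. The genes most like Relb were Car13, Parp8, Ehd2 and Kcnq1, with Pearson's r of 0.98, 0.98, 0.97 and 0.97 over 15 libraries. Each of these 4 genes had a library at 0 CPM.

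Nfkb2, which encodes p100 and p52, separated the 3 groups. CTL samples 1 to 5 had 10.0, 10.2, 7.60, 12.4 and 7.50 CPM, RED samples 16.9, 14.6, 18.4, 19.6 and 19.8, and GREEN samples 20.7, 33.5, 44.0, 43.6 and 40.03. No sample of a group overlapped another group. As log2 fold changes, these differences were 0.90 ± 0.20 for RED versus CTL (edgeR adjusted p = 0.0049), 1.02 ± 0.20 for GREEN versus RED (edgeR adjusted p = 0.0045) and 1.92 ± 0.20 for GREEN versus CTL (edgeR adjusted p = 1.7e-05). Leaving out each library in turn kept all 3 calls, at 0.74 to 0.96, 0.90 to 1.16 and 1.68 to 2.06. Within experiments 1 and 2 the RED versus CTL value was 0.99 and 0.92 (edgeR adjusted p = 0.018 and 0.083). Within experiment 1 the GREEN versus RED value was 1.29 (edgeR adjusted p = 0.0029), and within experiment 2 it was 0.90 (edgeR adjusted p = 0.23). With RED and GREEN only and a block by library code, the experiment 2 value was 0.85 (edgeR adjusted p = 0.022), with the same limit as for Relb. Without GREEN 3, 4 and 5 the GREEN versus RED value of the main fit was 0.65 (edgeR adjusted p = 0.99), and without RED 1 and 2 it was 0.88 (edgeR adjusted p = 0.053). Nfkb2 overlaps Psd on the other strand by 299 bases, with the same limit as for Traf2. Relb and Nfkb2 moved together, with r = 0.96 over 15 libraries and 0.85 after group means were removed.

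**Figure D3:**
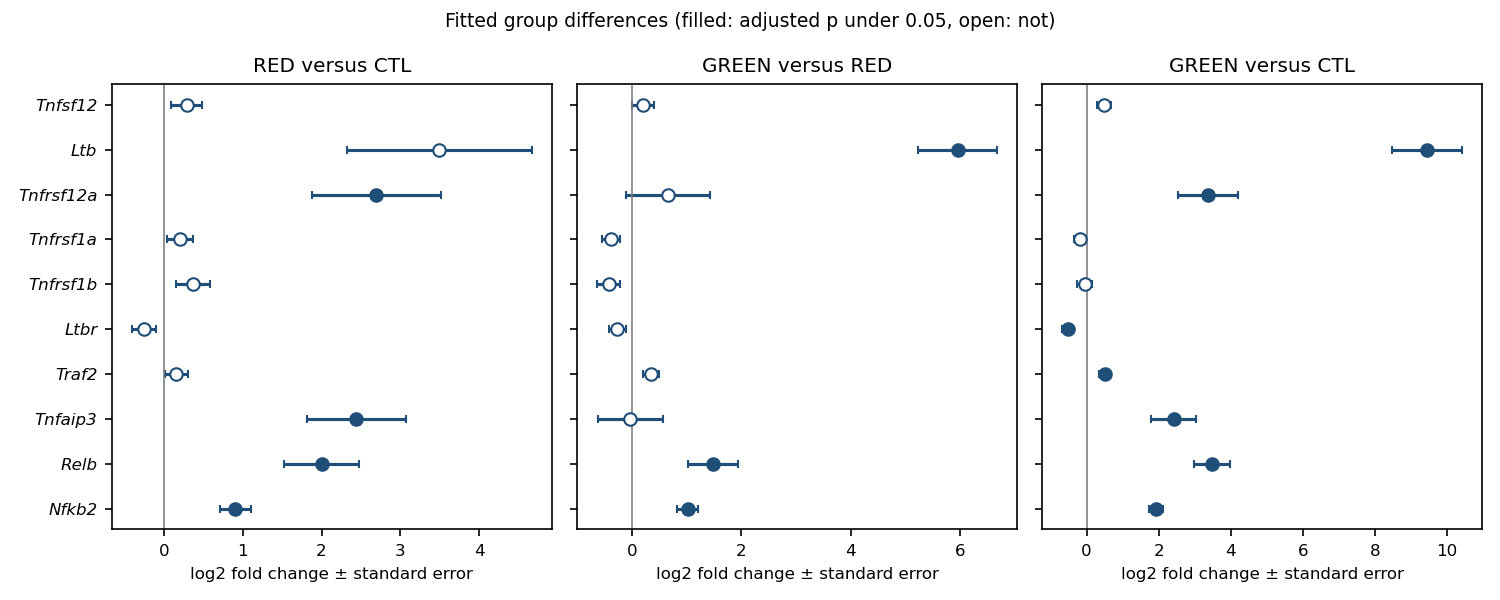
Fitted log2 fold change ± standard error (horizontal axes, scales differ) of the 10 genes by comparison, 1 panel each; filled points have an adjusted p under 0.05. Nfkb2 and Relb are filled in all 3 panels, Tnfrsf12a and Tnfaip3 in the panels against CTL, and Ltbr is the only filled point below 0.

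Per kilobase of exon, the 2 receptors Tnfrsf1a and Ltbr were the highest of the 10 in every group. In CTL they stood at 33.7 ± 6.25 and 32.5 ± 6.26 CPM per kb, which do not differ beyond their spread, followed by Tnfrsf1b at 9.09 ± 2.33 and Tnfsf12 at 5.46 ± 1.33 (SD, n = 5). Tnfrsf12a was at 2.07 ± 0.63 in CTL, behind 6 of the others, and at 21.1 ± 15.1 in GREEN, close to Ltbr at 22.6 ± 3.99. With the longest transcript as length, Tnfrsf12a was the highest in GREEN at 41.4. Ltb was last in CTL and RED, at 0.0034 and 0.080, and in GREEN it reached 5.33 ± 4.38, above Relb at 3.49 ± 1.57 and Traf2 at 3.26 ± 0.77, within their spread.

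Libraries of the same sample in both kits showed how far the kit moved each level. Over CTL 5, RED 2, RED 3 and RED 4, the log2 difference of experiment 2 minus experiment 1 averaged 1.24 for Relb (0.39 to 2.09), 0.69 for Tnfaip3 (0.28 to 1.06), 0.51 for Tnfsf12 (0.35 to 0.65) and -0.44 for Tnfrsf12a (-0.78 to -0.18). For Nfkb2 it was 0.19 (0.13 to 0.29), for Tnfrsf1a -0.26 (-0.40 to -0.09), and for Tnfrsf1b, Ltbr and Traf2 the mean lay between -0.16 and 0.0002. For Ltb, at no more than 0.19 CPM in these libraries, it was -0.44 (-0.91 to 0). For Relb and Tnfaip3, the difference was largest in CTL 5 and smallest in RED 4. Relb in CTL 5 stood at only 0.19 CPM in experiment 1 and 0.86 in experiment 2, so its 2.09 is a ratio of low levels. An interaction of group and experiment passed for none of the 10 genes in any comparison (edgeR, smallest unadjusted p = 0.15). Over all genes it was called for 1, 0 and 0 of 16387, with 666, 1420 and 2108 at an unadjusted p under 0.05.

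**Figure D4:**
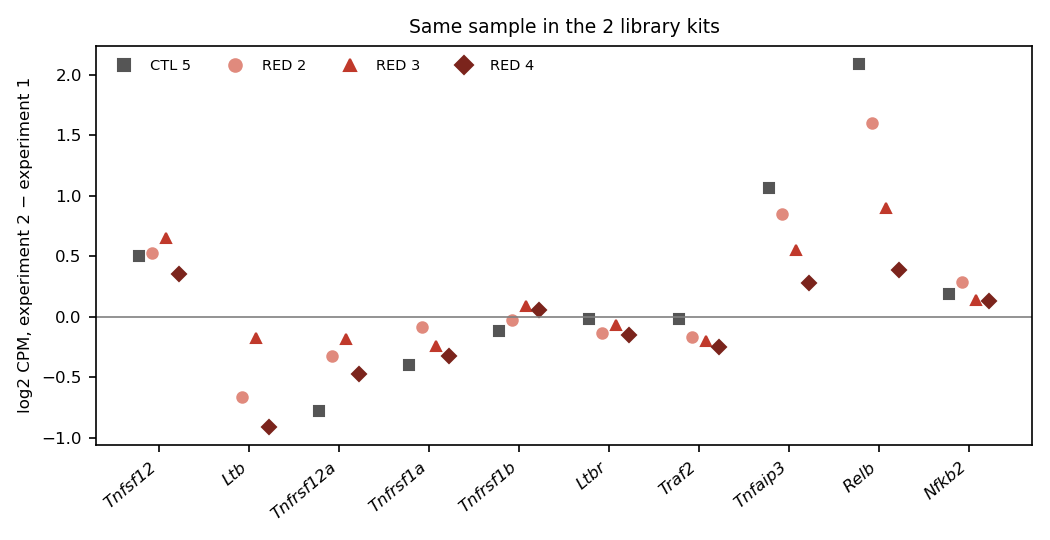
Log2 CPM of experiment 2 minus experiment 1 (vertical axis) for 4 samples that have a library in both, by gene (horizontal axis). Relb reaches 2.09 in CTL 5, where it stood at only 0.19 and 0.86 CPM, and 0.39 in RED 4, while Nfkb2 stays between 0.13 and 0.29. Ltb in CTL 5 is left out because both libraries held 0 counts.

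Among 16 other ligands of the TNF family, 8 were tested: 3 were called higher in RED than in CTL, 0 in GREEN than in RED and 5 in GREEN than in CTL, with 0 lower. Of all genes, 14.2%, 9.68% and 29.5% were called higher in these comparisons. Tnf, the founding ligand, stood at 0.16 ± 0.10 CPM in CTL, 8.25 ± 13.2 in RED and 11.4 ± 8.50 in GREEN (SD, n = 5), and the RED samples ranged from 0.34 to 31.6. Its log2 fold change was 5.404 ± 1.02 for RED versus CTL and 6.25 ± 1.04 for GREEN versus CTL, on 21 counts over the CTL libraries. Tnfsf9, the 4-1BB ligand, had 0 counts in every CTL library, 53 over RED and 323 over GREEN. Against a floor of 3 counts over the CTL group it was at least 15.8-fold higher in RED and at least 67.3-fold higher in GREEN. Tnfsf13b, the B cell factor BAFF, rose by 2.62 and 3.87 on the log2 scale against CTL in RED and GREEN, from 0.044 CPM in CTL. Tnf, Tnfsf9 and Tnfsf13b, the 3 called higher in RED than in CTL, had too few CTL counts to pass the filter there. They entered the fit through the injured groups, so their values are a description, with no test.

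Among 21 other receptors of the family, 17 were tested: 13 were called higher in GREEN than in CTL, 9 in RED than in CTL and 2 in GREEN than in RED, with 0 lower. The shares of all genes called higher were 29.5%, 14.2% and 9.68%, and the count in GREEN versus RED is near that share. Tnfrsf21, death receptor 6, rose by 3.16 and 3.83 against CTL in RED and GREEN (edgeR adjusted p = 0.0012 and 0.00014). Tnfrsf19, a receptor also called TROY, stood at 1.47, 3.49 and 38.7 CPM in CTL, RED and GREEN and rose by 3.33 from RED to GREEN (edgeR adjusted p = 0.0032) and by 4.53 from CTL to GREEN (edgeR adjusted p = 0.00012). Tnfrsf18, known as GITR, rose by 2.08 from RED to GREEN (edgeR adjusted p = 0.014), from 0.31 to 1.30 CPM. Ngfr, a nerve growth factor receptor that marks activated stellate cells, rose by 3.08 from CTL to RED (edgeR adjusted p = 0.0055). Tnfrsf13b had 0 counts over CTL, 38 over RED and 94 over GREEN, at least 11.3-fold and 19.6-fold higher than the floor of 3 counts over the CTL group.

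Of 38 adaptors, kinases, NF-κB subunits and inhibitors, all were tested: 6 higher and 0 lower in RED versus CTL, 4 and 2 in GREEN versus RED, and 12 and 6 in GREEN versus CTL. These counts are near the shares of all genes, 14.2% and 1.99%, 9.68% and 3.22%, and 29.5% and 18.6%. The inhibitor gene Nfkbie rose by 1.49 from RED to GREEN (edgeR adjusted p = 0.0088) and by 2.44 from CTL to GREEN (edgeR adjusted p = 8.4e-05). Birc2, which encodes an inhibitor of apoptosis that works with Traf2, and Tnip1, a partner of A20, rose by 0.89 and 0.86 from RED to GREEN (edgeR adjusted p = 0.016 and 0.024). None of these 3 passed for GREEN versus RED in experiment 2 alone. Chuk and Ikbkg, which encode IKK alpha and the NEMO subunit of the IKK complex, fell by 0.64 and 0.48 from RED to GREEN (edgeR adjusted p = 0.021 and 0.027) and by 0.95 and 0.63 from CTL to GREEN (edgeR adjusted p = 0.00042 and 0.0012). With library totals no gene of this list was called lower in any comparison: Chuk in GREEN stood at -0.22 against RED and -0.25 against CTL, and Ikbkg at -0.03 and 0.10. In RED versus CTL, Ripk3, a kinase of necroptosis, rose by 2.78, the adaptor Traf1 by 2.49 and the inhibitor Nfkbia by 1.48 (edgeR adjusted p = 0.0030, 0.013 and 0.025). In GREEN versus CTL, Traf1 rose by 3.55 and Ripk3 by 2.24 (edgeR adjusted p = 0.00059 and 0.0043).

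Among 30 known NF-κB target genes, 26 were tested: 15 higher and 1 lower in RED versus CTL, 0 and 1 in GREEN versus RED, and 19 and 2 in GREEN versus CTL. Of all genes, 14.2% and 1.99%, 9.68% and 3.22%, and 29.5% and 18.6% were called in the same order. The cytokine gene Il6 and the chemokine genes Ccl2 and Cxcl2 rose by 5.54, 5.26 and 4.41 from CTL to RED (edgeR adjusted p = 0.00063, 0.00057 and 0.00058). From CTL to GREEN, Ccl2 rose by 5.80, the early response gene Ier3 by 5.00 and the chemokine gene Ccl19 by 4.75 (edgeR adjusted p = 9.1e-05, 0.00023 and 0.00071); Ccl19 has 2 rows of that symbol in the tables, and the values are of ENSMUSG00000071005.7. The immunoproteasome gene Psmb9 fell by 0.66 and 0.87 against CTL in RED and GREEN (edgeR adjusted p = 0.029 and 0.0024), and the superoxide dismutase gene Sod2 fell by 0.65 from RED to GREEN and by 0.87 from CTL to GREEN (edgeR adjusted p = 0.045 and 0.0027). With library totals none of these 4 falls passed, at -0.39, -0.14, -0.23 and -0.18. The median log2 fold change of this list was 2.31 for RED versus CTL and 0.37 for GREEN versus RED, beside 0.05 and -0.02 over all genes. For the macrophage list it was 3.30 for RED versus CTL but -0.91 for GREEN versus RED. The macrophage sums were 37.3 to 103 CPM in CTL, 118 to 1567 in RED and 140 to 535 in GREEN. For RED versus CTL, the endothelial, stellate or matrix and neutrophil lists had medians of 3.80, 4.03 and 4.15. The part of these marker lists in the target counts was not tested. Without GREEN 3, 4 and 5, none of the 4 lists had a gene called in GREEN versus RED, and the genes called higher in GREEN versus CTL were 3 ligands, 3 receptors, 2 adaptors or inhibitors and 12 targets. Over all genes, that fit called 52 in GREEN versus RED and 2176 in GREEN versus CTL in either direction, against 2114 and 7890 in the main fit. With so few calls over all genes, the absence of calls in GREEN versus RED is not a result about these lists.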

How the data were processed

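The deposited tables hold estimated counts per gene, made by the authors with kallisto 0.43.1 on GRCm38, per the submitters' processing notes; the sources used here name no annotation release or filters. RNA of 150 ng per library was used, per the labels' protocols. The estimated counts were rounded to whole numbers. Of 19 libraries, 15 were used, 1 per sample by title, the experiment 2 library where a sample had both. Gene symbols and coordinates came from GENCODE M21 (99% of genes matched). Genes were filtered with filterByExpr and fitted over the 3 groups with experiment as a term in edgeR 4.0.16 (R 4.3.3) with TMM scaling; limma 3.58.1 and DESeq2 1.42.0 were alternatives, and 15 fits left out 1 library each. The test was checked on simulated data. Count intervals and floors cover counting error only, at 95% and 3 counts.

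The 10 genes and all lists were chosen with earlier results of these data known. From each other list, up to 3 called genes that were higher and 2 lower, with the largest log2 fold change, are named, and for Tnfrsf12a, Ltb and Relb the 4 genes with the highest Pearson correlation. Samples with the same library code are not stated to share an animal.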

Additional observations from a re-analysis of the deposited data

Results flagged for a closer look

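Of 30 groups of 5 samples, 1 for each gene in each group, 5 held a sample far from the other 4. The rule flags about 1 in 20 groups of normally distributed values, which CPM of low counts are not, so no excess is read from this. Tnfrsf12a in RED 4 stood at 85.8 CPM, with the next RED sample at 18.2. Ltb in CTL 2 stood at 0.0261 CPM, which is 1 count, with the others at 0, so the rule had to flag it. Ltb in RED 5 stood at 0.350 CPM, with the next RED sample at 0.0958. Ltbr in GREEN 1 stood at 69.6 CPM, with the next GREEN sample at 50.9. Traf2 in RED 1 stood at 16.4 CPM, with the next RED sample at 12.8.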

How the results depend on the processing

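Of the 10 genes, the number called higher in RED versus CTL was 4. It was 2 with the experiment 1 library of the 4 samples that have a library in each experiment, 2 with all 19 libraries and the sample as a random block in limma-voom, 1 in experiment 1 alone, 1 in experiment 2 alone, and 2 to 5 with 1 library left out. Over all genes, calls in either direction were 2652 in the main fit, and 2037, 1864, 2093, 1207 and 2131 to 3267 in these settings. The number called higher in GREEN versus RED was 3. It was 0 in experiment 2 alone, 0 in experiment 2 with RED and GREEN only and no replicate block, 0 without GREEN 3, 4 and 5, 1 without RED 1 and 2, and 2 to 3 with 1 library left out. Over all genes, calls in either direction were 2114 in the main fit, and 77, 0, 52, 844 and 866 to 3515 in these settings. Where Ltb is among the genes counted, it entered the fit through GREEN. The number called lower in GREEN versus RED was 1 in experiment 1 alone and 0 to 1 with 1 library left out. In GREEN versus CTL, 3 were called higher in experiment 2 alone and 3 without GREEN 3, 4 and 5, and 0 were called lower by library totals, in experiment 2 alone and without GREEN 3, 4 and 5, against 6 to 7 higher with 1 library left out. Over all genes, GREEN versus CTL had 7890 calls in the main fit. It had 3481 in experiment 2 alone, 2176 without GREEN 3, 4 and 5, and 6710 to 8446 with 1 library left out. By library totals the higher calls were 6 in RED versus CTL, 4 in GREEN versus RED and 9 in GREEN versus CTL, beside 2812, 4289 and 10077 over all genes. The cause was not tested. Leaving out GREEN 3 to 5 or RED 1 and 2, and the fits on experiment 2 with RED and GREEN only, were chosen after seeing the data.

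Signs turned for small values. By library totals, Ltbr became 0.20 in GREEN versus CTL, 0.051 in RED versus CTL and 0.15 in GREEN versus RED. Tnfrsf1a became 0.55 in GREEN versus CTL and 0.046 in GREEN versus RED, and Tnfrsf1b 0.67 in GREEN versus CTL. The log2 fold change of Tnfaip3 for GREEN versus RED, -0.03, became 0.41 by library totals, 0.13 with limma-voom, 0.21 with all 19 libraries, 0.10 and 0.39 in experiments 1 and 2 alone, 0.28 with the replicate block by title number, 0.36 and 0.50 in experiment 2 with RED and GREEN only without and with a block by library code, and -0.32 to 0.41 with 1 library left out, positive without RED 4, RED 5, GREEN 1 or GREEN 5 (0.16, 0.41, 0.13 and 0.047). Tnfrsf1b in GREEN versus CTL, -0.05, became 0.11 in experiment 2 alone, 0.19 without GREEN 3, 4 and 5, and -0.29 to 0.074 with 1 library left out, positive without CTL 4 (0.064), GREEN 3 (0.016) or GREEN 4 (0.074). Without GREEN 3, 4 and 5, Tnfrsf12a and Tnfsf12 for GREEN versus RED became -1.09 and -0.026.

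The replicate block by title number gave 5 genes called higher in RED versus CTL, 2 in GREEN versus RED and 7 in GREEN versus CTL. Library codes link RED and GREEN samples, and GREEN 3 and GREEN 4 carry the same code. Deviations of same-code RED and GREEN pairs correlated at 0.74, 0.55, 0.41, 0.38 and -0.19, and those of GREEN 3 and GREEN 4 at 0.32. Because of the negative pair, the main fit has no block. RED 4 with GREEN 3 and RED 2 with GREEN 1, both of the same code, had the highest values of all pairs compared. Whether the codes pair the samples therefore cannot be told. With RED and GREEN only, the replicate block by library code left 3 genes called higher: Ltb at 5.29, Relb at 1.13 and Nfkb2 at 0.86. In experiment 2 with that block they were 5.77, 1.01 and 0.85 (edgeR adjusted p = 0.041 for Relb and 0.022 for Nfkb2). Ltb entered the fit through GREEN, so its part in these calls is a description, with no test. Over all genes, calls in GREEN versus RED were 2114, and 1283 and 914 with RED and GREEN only without and with the block, 77 in experiment 2 alone, 5351 in experiment 1 alone, 4141 with the experiment 1 library of the 4 samples, 4329 by library totals, 3822 with DESeq2, 52 without GREEN 3, 4 and 5, and 866 to 3515 with 1 library left out. In experiment 2 with RED and GREEN only they were 0 without the block in edgeR and 857 with it. Experiment 2 alone gave 1207 calls in RED versus CTL and 3481 in GREEN versus CTL, against 2652 and 7890. Depth limits Ltb in CTL and RED, at 1 and 19 counts.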
